A study of Mus musculus with 12 samples.

Results

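H2-K1, H2-D1, B2m, Tap1, Tap2, Tapbp, Psmb8, Psmb9 and Nlrc5 are genes of MHC class I antigen presentation. They were chosen for their known roles in the pathway, with earlier results of these data known, and found by symbol. All 9 were among the 23412 genes of the count tables. RNA was measured by bulk sequencing of poly-A-selected transcripts from v6.5 mouse embryonic stem cells (mESCs), a male line grown on gelatin in medium with serum and LIF. The libraries numbered 12, with 3 biological replicates of each of 4 genotypes. WT mESCs were unedited. Hmgn1-/- mESCs carried a homozygous frameshift deletion of 1 base in Hmgn1, and Hmgn2-/- mESCs a homozygous frameshift insertion of 1 base in Hmgn2. Hmgn1-/-Hmgn2-/- mESCs, the double knockout, came from editing Hmgn1 in the Hmgn2-/- line. Each knockout was 1 line, so the effect of a genotype and that of its line cannot be told apart. Library totals ran from 17337908 to 31448468 counts, with a median of 25931067.

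Class I molecules show short peptides from inside the cell to cytotoxic T cells. Proteasomes cut the peptides, the TAP transporter carries them into the endoplasmic reticulum, and tapasin helps to load them onto a heavy chain paired with beta-2 microglobulin. Cells of the early embryo and embryonic stem cells are known for low class I expression, and interferons raise most genes of the pathway in many cell types. HMGN1 and HMGN2 are proteins that bind nucleosomes.

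The targeted genes were checked against the labels first. Levels are given in CPM, the counts of a gene relative to the total of its library, after scaling of the totals by the trimmed mean of M values (TMM). Hmgn1 stood at 662, 594 and 612 CPM in the WT replicates, at 138, 139 and 142 in Hmgn1-/-, at 546, 556 and 640 in Hmgn2-/-, and at 21.6, 19.9 and 21.5 in double knockout mESCs. Hmgn2 stood at 137, 121 and 119 CPM in WT, at 106, 113 and 110 in Hmgn1-/-, at 50.9, 54.5 and 53.8 in Hmgn2-/-, and at 53.9, 50.5 and 54.5 in double knockout mESCs. Each targeted gene was low in every library of the lines edited in it and did not overlap the other libraries. The RNA was reduced and not absent, as a frameshift need not remove a transcript. Mean Hmgn1 levels were 22.5% of WT in Hmgn1-/- and 3.37% in double knockout mESCs, and the cause of this difference was not tested. The embryonic stem cell marker Pou5f1 was the most abundant of 10 markers of these cells in all 12 libraries, at 1652 to 2167 CPM.

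Differences were tested with edgeR's quasi-likelihood test and Benjamini-Hochberg adjustment over all genes tested. A gene with an adjusted p under 0.01 and a log2 fold change of at least 1 in size is called a DEG, and one with an adjusted p under 0.01 is called at any fold. In Hmgn1-/- against WT mESCs 2 of the 9 genes were DEGs with lower levels, where 5.08% of 13917 genes tested were lower DEGs. At any fold 4 of the 9 were called, all lower, and 17.3% of all genes tested were called in either direction, with 1399 genes lower. In Hmgn2-/- against WT mESCs 3 of the 9 were lower DEGs, against 4.38% of 14047 genes, and the same 3 were called at any fold, where 9.97% of all genes were in either direction and 936 genes were lower. In the double knockout 2 of the 9 were lower DEGs, against 5.00% of 14128 genes, and the same 2 were called at any fold, where 18.0% of all genes were in either direction and 1443 genes were lower. The members called were all lower, so the counts of lower genes are the closer background to them. The 9 genes were chosen with earlier results known, so these counts describe the set and do not test it. None of the 9 was a higher DEG with edgeR or with DESeq2 in any of these comparisons, where 0.898%, 0.776% and 1.30% of all genes were, and none with a positive log2 fold change had an unadjusted p under 0.05. The median log2 fold change of the 9 was -0.60, -0.49 and -0.30 in Hmgn1-/-, Hmgn2-/- and double knockout mESCs, and that of all genes tested was 0.004, 0.013 and 0.004. An unadjusted p under 0.05 was found for 38.7%, 31.0% and 38.9% of all genes tested. The share of all genes whose knockout libraries do not overlap the WT libraries was not counted. Where such a separation is given for a gene below, it is a description of its libraries. In each comparison 1 of the members called was Psmb8, which was tested only because its WT counts were high, and with at least 10 counts asked of every library the lower DEGs numbered 1, 2 and 1 of the 9. Left-out libraries also moved the counts. Without WT replicate 2, WT replicate 3 or Hmgn1-/- replicate 2 there was 1 DEG of the 9 in Hmgn1-/- mESCs, and without Hmgn2-/- replicate 2 there was 1 in Hmgn2-/- mESCs. The Tap2 call in Hmgn2-/- mESCs was lost in 5 of the 6 fits with a library left out. The 3 comparisons shared the 3 WT libraries and are not independent of each other.

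**Figure D1:**
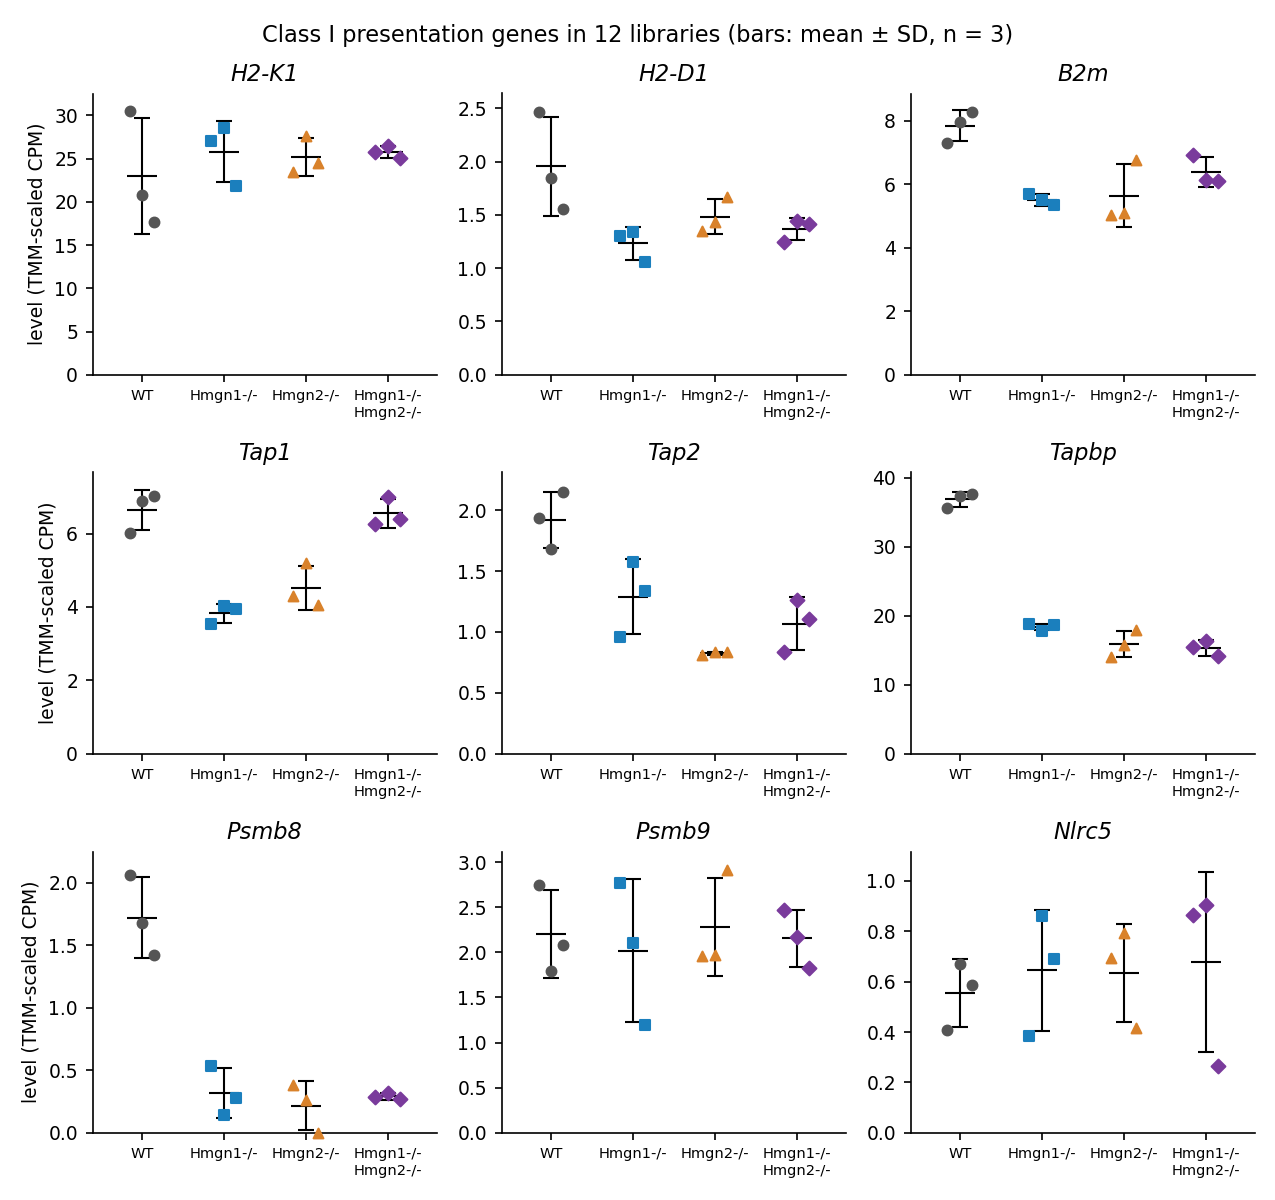
Levels of the 9 class I presentation genes in TMM-scaled CPM (vertical axes) in WT, Hmgn1-/-, Hmgn2-/- and Hmgn1-/-Hmgn2-/- mESCs (horizontal axes), with 1 point for each library and bars for the mean ± SD (n = 3). The knockout points of Tapbp, Psmb8, Tap2 and B2m lie below all WT points, and those of Tap1 do so in the 2 single knockouts only. The share of all genes that separate in this way was not counted.

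**Figure D2:**
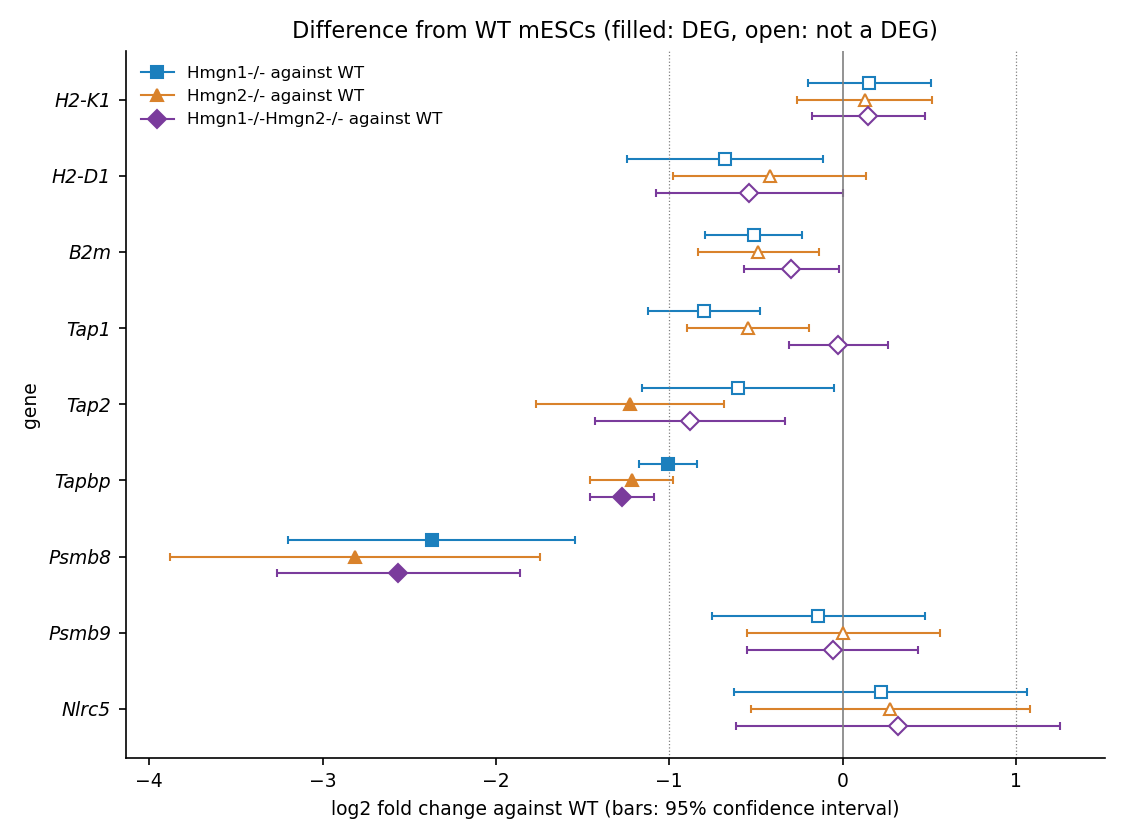
Log2 fold change of each gene (vertical axis) against WT mESCs, with bars for the 95% confidence interval, filled symbols for DEGs and dotted lines at -1 and 1. Tapbp and Psmb8 are filled in all 3 comparisons, and Tap2 in Hmgn2-/- mESCs alone.

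The peptides are cut by proteasomes, and in the immunoproteasome PSMB8 and PSMB9 take the place of catalytic subunits of the constitutive form. Psmb8 (chr17:34198195-34201454 of GRCm38) had 66, 30 and 41 counts in the WT replicates, 14, 3 and 6 in Hmgn1-/-, 10, 7 and 0 in Hmgn2-/-, and 9, 7 and 7 in double knockout mESCs. All 9 knockout libraries were below all 3 WT libraries. The library with 0 counts, Hmgn2-/- replicate 3, allows a level of up to 0.178 CPM by counting error. Mean levels were 1.72 ± 0.323 CPM in WT, 0.319 ± 0.201 in Hmgn1-/-, 0.290 ± 0.0246 in double knockout and 0.217 ± 0.197 in Hmgn2-/- mESCs (SD, n = 3), and the 3 knockouts did not differ beyond their spread. Psmb8 fell by 2.37 on the log2 scale in Hmgn1-/- mESCs (95% interval -3.20 to -1.54, adjusted p 0.000411). In Hmgn2-/- mESCs it fell by 2.81 (-3.88 to -1.75, adjusted p 0.00214), and in the double knockout by 2.56 (-3.27 to -1.86, adjusted p 5.36e-05). The fall was 3.01 without Hmgn1-/- replicate 1 and 3.40 without Hmgn2-/- replicate 1, the libraries with the most Psmb8 counts of their groups. Without the libraries with the fewest, the log2 fold change was -2.052 (Hmgn1-/- replicate 2 left out) and -2.395 (Hmgn2-/- replicate 3 left out). Psmb8 passed the filter on low counts through the WT libraries, so a difference was needed for it to be tested, and it did not pass in comparisons between knockouts. Without Hmgn2-/- replicate 2 the adjusted p in Hmgn2-/- mESCs was 0.0123, within a range of 5.57e-06 to 0.0123 over the alternatives. In bulk RNA, fewer cells with a transcript and less of it per cell cannot be told apart, here and in the results that follow.

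Psmb9 (chr17:34182030-34187330) did not follow its partner subunit. Its levels were 2.75, 1.79 and 2.08 CPM in WT, 2.77, 2.10 and 1.19 in Hmgn1-/-, 1.96, 1.97 and 2.91 in Hmgn2-/-, and 2.47, 2.17 and 1.83 in double knockout mESCs. The 4 groups overlapped, and their means of 2.28 ± 0.547 in Hmgn2-/-, 2.21 ± 0.491 in WT, 2.16 ± 0.318 in double knockout and 2.02 ± 0.789 in Hmgn1-/- mESCs differed by less than the spread between replicates. The log2 fold change was -0.14 in Hmgn1-/- mESCs (95% interval -0.76 to 0.48), 0.005 in Hmgn2-/- (-0.55 to 0.56) and -0.06 in the double knockout (-0.55 to 0.44). The intervals allow a change of less than 1 on the log2 scale in each line. The ratio of Psmb8 to Psmb9 counts, which does not depend on the scaling of the libraries, was 0.75, 0.938 and 0.683 in the WT replicates. It was 0.194, 0.0682 and 0.231 in Hmgn1-/-, 0.196, 0.135 and 0 in Hmgn2-/-, and 0.117, 0.146 and 0.146 in double knockout mESCs. All WT ratios lay above all knockout ratios.

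TAP1 and TAP2 are the paired subunits of the peptide transporter. Tap1 (chr17:34187556-34197225) stood at 6.03, 6.89 and 7.03 CPM in WT, 3.54, 4.01 and 3.95 in Hmgn1-/-, 4.31, 5.19 and 4.04 in Hmgn2-/-, and 6.25, 7.0 and 6.41 in double knockout mESCs. The single knockouts were below every WT library, and the double knockout overlapped WT. In order, the means were 6.65 ± 0.540 in WT, 6.55 ± 0.395 in double knockout, 4.51 ± 0.597 in Hmgn2-/- and 3.83 ± 0.260 in Hmgn1-/- mESCs (SD, n = 3). The WT and double knockout means differed by less than their spread, and the means of the single knockouts were little further apart than their spread. Tap1 fell by 0.80 on the log2 scale in Hmgn1-/- mESCs (95% interval -1.12 to -0.48, adjusted p 0.00125), a call at any fold. In Hmgn2-/- mESCs the log2 fold change was -0.55 (-0.90 to -0.20, adjusted p 0.0343) and did not pass, except with all 12 libraries in 1 fit, where the adjusted p was 0.00661 within a range of 0.00661 to 0.13 over the alternatives. In the double knockout it was -0.03 (-0.31 to 0.26, adjusted p 0.918).

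Tap2 (chr17:34204479-34216321) had 62, 30 and 62 counts in WT, 25, 33 and 29 in Hmgn1-/-, 21, 22 and 14 in Hmgn2-/-, and 26, 28 and 29 in double knockout mESCs. As levels, 1.94, 1.68 and 2.15 CPM in WT compared with 0.961, 1.58 and 1.33 in Hmgn1-/-, 0.808, 0.833 and 0.832 in Hmgn2-/-, and 0.833, 1.26 and 1.11 in double knockout mESCs. Every knockout library was below every WT library, and the double knockout overlapped Hmgn1-/- mESCs. The means ran from 1.92 ± 0.234 in WT through 1.29 ± 0.310 in Hmgn1-/- and 1.07 ± 0.218 in double knockout to 0.825 ± 0.0140 in Hmgn2-/- mESCs, with the first 2 knockouts within their spread of each other. Tap2 fell by 1.23 in Hmgn2-/- mESCs (95% interval -1.77 to -0.68, adjusted p 0.00543). This call was lost with any WT replicate, Hmgn2-/- replicate 1 or Hmgn2-/- replicate 2 left out (adjusted p 0.0126 to 0.0304) and with a replicate block (0.0129), over a whole range of 0.00195 to 0.0304. The log2 fold change was -0.60 in Hmgn1-/- (-1.16 to -0.05, adjusted p 0.099) and -0.88 in double knockout mESCs (-1.43 to -0.33, adjusted p 0.0184), which did not pass. Between Hmgn2-/- and Hmgn1-/- mESCs the test gave -0.63 (-1.25 to -0.01, adjusted p 1.0).

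Tap1 and Psmb9 are read in opposite directions from starts 225 bases apart. The ratio of Tap1 to Psmb9 counts was 2.19, 3.84 and 3.38 in WT, 1.28, 1.91 and 3.31 in Hmgn1-/-, 2.20, 2.64 and 1.39 in Hmgn2-/-, and 2.53, 3.23 and 3.50 in double knockout mESCs. These ratios overlapped between groups, and whether the fold changes of the genes differed was not tested. An annotated Psmb9 transcript overlaps exons of Tap1 on the other strand, and whether counting used the strand is not known, so some reads of either gene could belong to the other.

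Tapasin, the product of Tapbp, holds the empty class I molecule beside the transporter and edits its peptide. Tapbp (chr17:33919478-33929290) had the most counts of the 9 genes in WT mESCs, with 1140, 667 and 1090. Its levels were 35.6, 37.3 and 37.7 CPM in WT, 18.8, 17.9 and 18.6 in Hmgn1-/-, 14, 15.8 and 17.9 in Hmgn2-/-, and 15.5, 16.3 and 14.1 in double knockout mESCs. All 9 knockout libraries lay far below all 3 WT libraries and close to each other. Mean levels were 36.9 ± 1.13 CPM in WT, 18.4 ± 0.474 in Hmgn1-/-, 15.9 ± 1.94 in Hmgn2-/- and 15.3 ± 1.13 in double knockout mESCs, or 49.9%, 43.1% and 41.6% of WT in the knockouts. The Hmgn2-/- and double knockout means differed by less than their spread. Tapbp fell by 1.01 on the log2 scale in Hmgn1-/- mESCs (95% interval -1.18 to -0.84, adjusted p 7.84e-07). It fell by 1.22 in Hmgn2-/- mESCs (-1.46 to -0.98, adjusted p 3.6e-05) and by 1.27 in the double knockout (-1.46 to -1.09, adjusted p 1.59e-07). In Hmgn1-/- mESCs the fold sat at the DEG limit, with a log2 fold change of -0.996 without WT replicate 2, -0.992 without WT replicate 3 and -0.99 without Hmgn1-/- replicate 2, while the adjusted p stayed at or under 2.52e-05 in every alternative but glmTreat, which tests against a log2 fold change of 1. The gene lies next to Zbtb22 and an antisense transcript, Gm19412, whose reads could not be separated from its own.

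Of the presented molecules, H2-K1 and H2-D1 are heavy chains and B2m encodes the light chain that all of them need. The promoter windows of H2-K1 and B2m are shown because their products pair on the cell surface. Windows came from a table of promoters from RefSeq on GRCm38.p6, which held 7 of the 9 genes (all but Tap2 and Nlrc5), and cover up to 250 bases before the start. The H2-K1 window is chr17:34000348-34000597 on the minus strand and the B2m window chr2:122147437-122147685 on the plus strand, both 5′ to 3′ with capitals for the matched motifs.
H2-K1: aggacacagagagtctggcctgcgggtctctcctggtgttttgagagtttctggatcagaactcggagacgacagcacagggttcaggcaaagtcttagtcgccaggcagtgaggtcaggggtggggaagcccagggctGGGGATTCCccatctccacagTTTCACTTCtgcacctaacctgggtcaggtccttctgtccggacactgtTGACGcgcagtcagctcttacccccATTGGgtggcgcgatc
B2m: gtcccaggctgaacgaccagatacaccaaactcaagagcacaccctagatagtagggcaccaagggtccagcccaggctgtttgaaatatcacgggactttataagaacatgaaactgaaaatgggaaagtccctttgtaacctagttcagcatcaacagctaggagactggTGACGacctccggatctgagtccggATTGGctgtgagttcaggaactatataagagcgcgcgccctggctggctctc

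The motifs were searched on both strands as CCAAT (the CCAAT box), TGACG (a cyclic AMP response element core), GAANNGAAA (an interferon-stimulated element core), TTCNNNGAA (a gamma-activated site) and GGGNNTTCC (an NF-kappaB core). The matches printed did not overlap each other. H2-K1 held GGGGATTCC at 111, TTTCACTTC at 90, TGACG at 41 and ATTGG at 16 bases before position 34000347, the start that the promoter table gives first. This start lies inside the outer bounds of the gene printed below. A further start in that table, at 34000333, puts the same matches at 125, 104, 55 and 30 bases and adds a CCAAT at 6. B2m held TGACG at 78 and ATTGG at 53 bases before its start. CCAAT was present in 6 of the 7 genes' windows (all but Psmb8) and in 33.8% of all 32851 promoter windows of 250 bases. TGACG was present in 5 of the 7 (H2-K1, H2-D1, B2m, Tap1 and Psmb9), against 17.8% of all windows, with Tap1 and Psmb9 sharing 225 bases of window. GAANNGAAA and GGGNNTTCC were present in H2-K1 and H2-D1, against 6.31% and 4.98% of all windows, and TTCNNNGAA in Psmb8, against 7.02%. The patterns do not cover every form of these elements. The B2m window holds gaaactgaaa, a common form of the interferon-stimulated element, and ggaaagtccc, a common NF-kappaB site on the other strand, and the patterns match neither. A match is a description of letters, and these windows were not tested for binding. The windows of H2-D1, Tap1, Tapbp, Psmb8 and Psmb9 lie almost wholly in annotated untranslated exons and are not printed.

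H2-K1 (chr17:33996012-34000619) stood at 30.6, 20.8 and 17.7 CPM in WT, 27.1, 28.5 and 21.9 in Hmgn1-/-, 23.5, 27.6 and 24.4 in Hmgn2-/-, and 25.8, 26.4 and 25.1 in double knockout mESCs. WT replicate 1 was the highest of all 12 libraries and the other WT replicates were the lowest, so the groups overlapped. Means of 25.8 ± 3.49 in Hmgn1-/-, 25.8 ± 0.678 in double knockout, 25.2 ± 2.17 in Hmgn2-/- and 23 ± 6.74 in WT mESCs differed by less than the spread. The log2 fold change was 0.15 in Hmgn1-/- mESCs (95% interval -0.20 to 0.51, adjusted p 0.531), 0.13 in Hmgn2-/- (-0.26 to 0.52, adjusted p 0.692) and 0.15 in the double knockout (-0.18 to 0.48, adjusted p 0.509). A fall by 1 on the log2 scale, the size seen for Tapbp, is outside all of these intervals. Without WT replicate 1 the values were 0.42 in Hmgn1-/- (adjusted p 0.00611, range over alternatives 0.00611 to 0.966) and 0.42 in double knockout mESCs (adjusted p 0.00267, range 0.00267 to 0.929), so that library decided whether H2-K1 was called higher at any fold.

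H2-D1 (chr17:35263094-35267497) was measured with 23 to 79 counts in a library. Its levels were 2.47, 1.85 and 1.56 CPM in WT, 1.31, 1.34 and 1.06 in Hmgn1-/-, 1.35, 1.44 and 1.67 in Hmgn2-/-, and 1.25, 1.45 and 1.41 in double knockout mESCs. Hmgn1-/- and double knockout libraries were below every WT library, and Hmgn2-/- replicate 3 was above WT replicate 3. Means were 1.96 ± 0.465 in WT, 1.48 ± 0.164 in Hmgn2-/-, 1.37 ± 0.104 in double knockout and 1.23 ± 0.154 in Hmgn1-/- mESCs, with the knockouts within their spread of their neighbours in this order and WT above them by slightly more. No comparison passed the test, at log2 fold changes of -0.68 in Hmgn1-/- (95% interval -1.24 to -0.11, adjusted p 0.0701), -0.42 in Hmgn2-/- (-0.98 to 0.14, adjusted p 0.299) and -0.54 in double knockout mESCs (adjusted p 0.128). Leaving out WT replicate 1 made them -0.456, -0.203 and -0.315. H2-K1 and H2-D1 have close copies in the H2 region, and how reads that fit several copies were counted is not known.

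B2m (chr2:122147687-122153082), the member on another chromosome with a part in every class I molecule, stood at 7.31, 7.95 and 8.27 CPM in WT, 5.69, 5.50 and 5.33 in Hmgn1-/-, 5.04, 5.11 and 6.78 in Hmgn2-/-, and 6.92, 6.14 and 6.10 in double knockout mESCs. Every knockout library was below every WT library. The means were 7.84 ± 0.491 in WT, 6.39 ± 0.462 in double knockout, 5.64 ± 0.983 in Hmgn2-/- and 5.50 ± 0.178 in Hmgn1-/- mESCs, and the knockouts did not differ from their neighbours in this order beyond their spread. B2m fell by 0.51 on the log2 scale in Hmgn1-/- mESCs (95% interval -0.79 to -0.23, adjusted p 0.00935), a call at any fold. The adjusted p was 0.016 with DESeq2 and 0.0255 to 0.0463 with any library but WT replicate 1 left out, over a whole range of 0.00439 to 0.0463. In Hmgn2-/- mESCs the log2 fold change was -0.49 (-0.83 to -0.14, adjusted p 0.0548), and in the double knockout it was -0.30 (-0.57 to -0.02, adjusted p 0.102).

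Nlrc5 (chr8:94434335-94527272) encodes a transactivator of class I genes and was the least abundant of the 9 in WT mESCs, with 7 to 27 counts in a library. Levels were 0.406, 0.672 and 0.588 CPM in WT, 0.384, 0.860 and 0.689 in Hmgn1-/-, 0.693, 0.795 and 0.416 in Hmgn2-/-, and 0.865, 0.903 and 0.267 in double knockout mESCs. The groups overlapped, and their means of 0.678 ± 0.357 in double knockout, 0.644 ± 0.241 in Hmgn1-/-, 0.635 ± 0.196 in Hmgn2-/- and 0.555 ± 0.136 in WT mESCs were within their spread. The log2 fold change was 0.22 in Hmgn1-/- (95% interval -0.62 to 1.07), 0.28 in Hmgn2-/- (-0.53 to 1.08) and 0.32 in double knockout mESCs (-0.62 to 1.26), so a difference under about 1 on the log2 scale was not detectable at this depth.

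Per kilobase of annotated exon, WT levels were 13.9 ± 4.08 CPM for H2-K1, 12.7 ± 0.390 for Tapbp and 9.12 ± 0.571 for B2m. They were 2.25 ± 0.183 for Tap1, 1.63 ± 0.363 for Psmb9 and 1.06 ± 0.198 for Psmb8. H2-D1 stood at 0.931 ± 0.221, Tap2 at 0.558 ± 0.0679 and Nlrc5 at 0.0684 ± 0.0167 CPM per kilobase. H2-K1 and Tapbp did not differ beyond the spread, and neither did Psmb8 and H2-D1. The 2 transporter genes were thus at unequal levels in WT mESCs. The 2 heavy chains were also, as counted, and how reads that fit several copies of them were counted is not known.

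Comparisons between knockouts asked whether the lines differed from each other. In Hmgn2-/- against Hmgn1-/- mESCs edgeR called 0 of the 8 genes tested, where 0.176% of 13648 genes were DEGs and 0.352% were called at any fold. There 1 of the 8, Tap2, had an unadjusted p under 0.05, against 3.20% of all genes, and DESeq2 called 0. In the double knockout against Hmgn2-/- mESCs 0 of 8 were called, against 0.0434% of 13816 genes by the DEG rule and 0.0434% at any fold. Tap1 alone had an unadjusted p under 0.05 there, against 4.44% of all genes. Its log2 fold change was 0.52 (95% interval 0.21 to 0.84, adjusted p 0.436), and DESeq2 called 0 of the 8. In the double knockout against Hmgn1-/- mESCs 0 of 8 were DEGs, against 0.511% of 13710 genes, and 1 of 8 was called at any fold, against 1.09%. That gene was Tap1, higher by 0.77 (0.48 to 1.07, adjusted p 0.006), a call lost whichever of the 6 libraries was dropped (adjusted p 0.0105 to 0.0411, whole range 0.000568 to 0.0411). In the same comparison 2 of the 8 had an unadjusted p under 0.05, against 9.53% of all genes. DESeq2 called 0 by the DEG rule and 1 at any fold. Tapbp gave -0.27 (-0.46 to -0.07, adjusted p 0.269). Psmb8 had too few counts to be tested in these comparisons.

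The departure from additivity asked whether the log2 difference of the double knockout from WT mESCs equalled the sum of the differences of the single knockouts, with a contrast over all 12 libraries. By the DEG rule 1 of the 9 genes departed, against 3.48% of 14323 genes, and at any fold 2 departed, against 6.32%. Both of these genes departed upward, as did 427 of the 499 genes called by the DEG rule and 591 of the 905 called at any fold. Tap1 departed by 1.33 (95% interval 0.92 to 1.74, adjusted p 0.000318), being lower in both single knockouts and at the WT level in the double knockout. Tapbp departed by 0.96 (0.68 to 1.25, adjusted p 0.000238), being lower by a similar size in the 3 lines. For the others the contrast did not pass, at 0.71 for B2m (0.31 to 1.12, adjusted p 0.0204), 0.96 for Tap2 (0.19 to 1.73, adjusted p 0.0966) and 2.63 for Psmb8 (0.99 to 4.27, adjusted p 0.0349). Nothing is read from the Psmb8 contrast, since the sum of its falls in the single knockouts would leave a level under that of 3 counts in every library, and it was tested through its WT counts. B2m passed at any fold without Hmgn2-/- replicate 3 (adjusted p 0.00393, range over alternatives 0.00393 to 0.0607). H2-D1, H2-K1, Psmb9 and Nlrc5 had contrasts of 0.57, -0.12, 0.09 and -0.17 with adjusted p of 0.299 to 0.922. The ratio of Tapbp to Tap1 counts was 5.91, 5.42 and 5.37 in WT, 5.30, 4.45 and 4.71 in Hmgn1-/-, 3.25, 3.05 and 4.43 in Hmgn2-/-, and 2.49, 2.34 and 2.20 in double knockout mESCs. The double knockout ratios lay below all others.

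**Figure D3:**
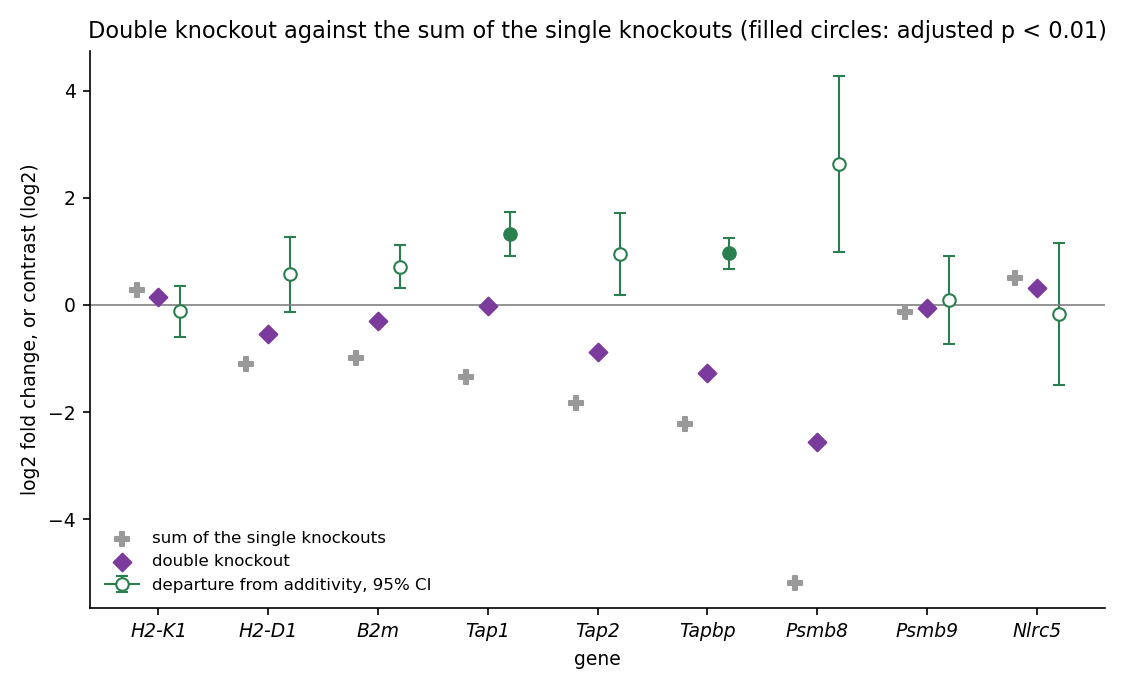
For each gene (horizontal axis), the sum of the log2 fold changes of the single knockouts (crosses), the log2 fold change of the double knockout (diamonds) and the contrast that tests their difference (circles, with 95% confidence intervals and filled at an adjusted p under 0.01). The Tap1 and Tapbp circles are filled, at 1.33 and 0.96, and the Psmb8 sum lies below what the libraries could show.

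All but B2m and Nlrc5 of the 9 lie within 1.34 Mb of chromosome 17, with Tapbp at one end and H2-D1 at the other. Whatever the strand, distances were taken between the ends with the lower coordinate. From that end of Tapbp, that of H2-K1 lay at 0.0765 Mb, Psmb9 at 0.263, Tap1 at 0.268, Psmb8 at 0.279 and Tap2 at 0.285 Mb. The count tables held 75 further genes of this stretch outside the pathway lists, of which 58, 59 and 58 were tested in Hmgn1-/-, Hmgn2-/- and double knockout mESCs. The median log2 fold change of these neighbours was 0.016, -0.001 and -0.042. With edgeR 0, 1 and 1 of them were DEGs, and DESeq2 also called 0, 1 and 1, while 20, 16 and 22 had an unadjusted p under 0.05. At any fold 2, 2 and 2 were called lower and 3, 2 and 4 higher. With edgeR, the neighbours' share of DEGs was below that of all genes tested. So was their share called at any fold in either direction, and that at an unadjusted p under 0.05. In Hmgn2-/- mESCs the share called higher at any fold, 2 of 59, was not below the 464 of 14047 for all genes. These differences in share were not tested. The DEG was Ly6g6e, which fell by 1.15 in Hmgn2-/- (adjusted p 0.002) and by 1.28 in double knockout mESCs (adjusted p 0.000227), and gave -0.38 in Hmgn1-/- mESCs (adjusted p 0.123). Psmb8 thus lay between Tap1 and Tap2, at log2 fold changes of -2.37, -2.81 and -2.56, and Psmb9, on the other side of Tap1, stayed near 0.

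**Figure D4:**
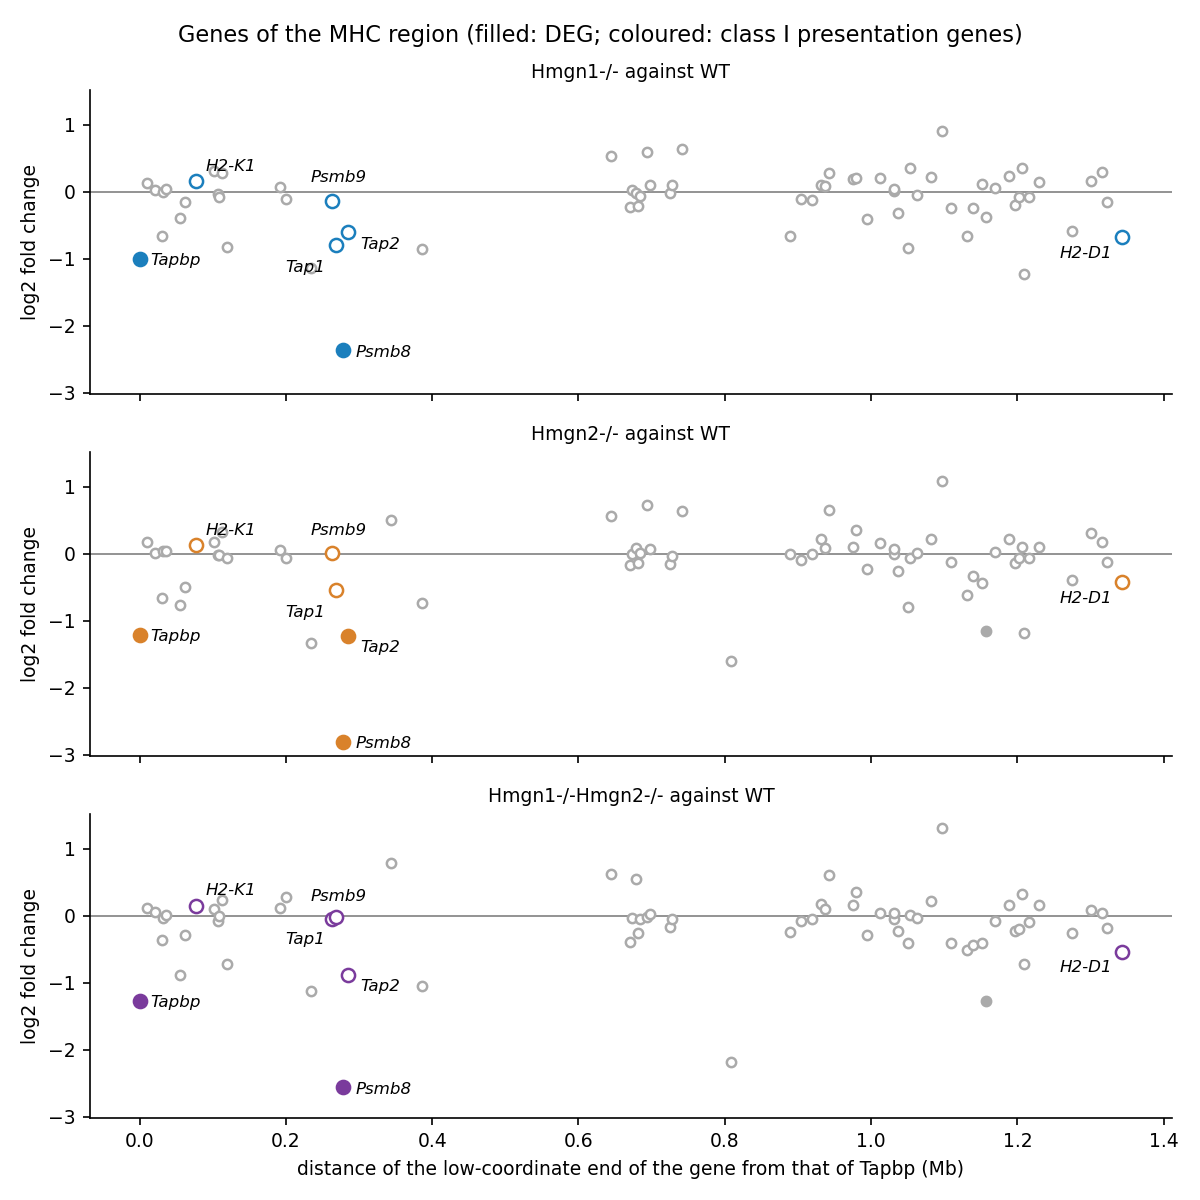
Log2 fold change against WT mESCs (vertical axes) of the genes tested along the MHC stretch of chromosome 17, by the distance of the low-coordinate end of the gene from that of Tapbp in Mb (horizontal axis), with coloured circles for class I presentation genes, grey circles for their neighbours and filled circles for DEGs. Tapbp and Psmb8 are filled in all 3 panels among neighbours whose medians were 0.016, -0.001 and -0.042.

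Other genes of the pathway were read from lists, with the all-gene medians given above for comparison. Counts at any fold compare with 17.3%, 9.97% and 18.0% of all genes, and counts at an unadjusted p under 0.05 with 38.7%, 31.0% and 38.9%. Of 30 other class I and class I-like heavy chains, 11, 12 and 11 were tested in Hmgn1-/-, Hmgn2-/- and double knockout mESCs, with medians of -0.12, -0.29 and -0.03. The neonatal Fc receptor gene Fcgrt fell by 1.09 in Hmgn2-/- (adjusted p 0.000338) and by 1.09 in double knockout mESCs (adjusted p 3.01e-05), and by 0.72, a call at any fold, in Hmgn1-/- mESCs (adjusted p 0.00137). Hfe, the haemochromatosis gene, was a higher DEG at 1.74 in Hmgn1-/- (adjusted p 0.00415) and at 1.63 in double knockout mESCs (adjusted p 0.00444) on 5 to 23 counts, and DESeq2 did not call it. Hfe passed the filter on low counts through the knockout libraries, so a difference was needed for it to be tested. No other gene of this list was a DEG in these comparisons, and at any fold 2, 2 and 2 were called lower and 1, 0 and 1 higher. Besides Fcgrt, the lower call was H2-M5, at -0.71, -0.74 and -0.85 (adjusted p 4.15e-05, 0.000841 and 2.15e-05).

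All 13 genes of peptide loading and trimming were tested, with medians of -0.09, -0.19 and -0.07. Erap1, the peptidase that trims peptides to class I length, was the DEG of this list. It stood at 4.37, 5.26 and 4.85 CPM in WT, 1.27, 2.01 and 1.43 in Hmgn1-/-, 2.00, 1.74 and 1.07 in Hmgn2-/-, and 1.31, 1.99 and 1.79 in double knockout mESCs. No knockout library reached a WT library. Erap1 fell by 1.63 in Hmgn1-/- (adjusted p 6.86e-05), by 1.54 in Hmgn2-/- (adjusted p 0.000793) and by 1.52 in double knockout mESCs (adjusted p 7.44e-05), and departed from additivity by 1.66 (adjusted p 0.00446). At any fold 3, 2 and 3 of the list were called lower and 0, 0 and 1 higher.

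Other proteasome genes were read in 2 lists. Of 5 further genes of the immunoproteasome, its activators and its assembly 0 were DEGs with edgeR or DESeq2 in the 3 comparisons with WT mESCs, with 2, 2 and 4 at an unadjusted p under 0.05 and medians of -0.07, 0.01 and -0.15. Psme3 and Pomp had the most counts, with log2 fold changes of 0.10, 0.10 and 0.11 for Psme3, of an activator, and of -0.07, 0.01 and -0.15 for Pomp, an assembly factor, in Hmgn1-/-, Hmgn2-/- and double knockout mESCs. At any fold 1 of the 5 was called lower in each and 1, 0 and 0 higher. The lower call was Psme2, of another activator subunit, at -0.67, -0.72 and -0.88 (adjusted p 0.000236, 0.0071 and 2.7e-05). The higher call was the immunoproteasome subunit Psmb10, at 0.32 in Hmgn1-/- mESCs (adjusted p 0.00911). Of 14 constitutive subunits of the 20S core edgeR and DESeq2 called 0 in each comparison with WT mESCs, and 0 had an unadjusted p under 0.05. Their medians were 0.01, 0.06 and -0.01, and Psmb4 and Psmb7, with the most counts, had log2 fold changes of -0.06 to 0.09.

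Among 19 factors known at class I promoters 17 were tested, with medians of 0.09, 0.10 and 0.12. Irf1, which encodes an interferon regulatory factor, stood at 37.9, 34.8 and 30.3 CPM in WT, 16.6, 15.7 and 15.9 in Hmgn1-/-, 13.8, 14.1 and 18.4 in Hmgn2-/-, and 13.8, 12.8 and 11.9 in double knockout mESCs. All knockout libraries were below all WT libraries. It fell by 1.10 in Hmgn1-/- (adjusted p 2.35e-06), by 1.16 in Hmgn2-/- (adjusted p 0.000185) and by 1.42 in double knockout mESCs (adjusted p 3.48e-07), with a departure from additivity of 0.85 (adjusted p 0.00304). Irf8 rose by 1.16 in Hmgn2-/- (adjusted p 0.00232) and by 1.07 in double knockout mESCs (adjusted p 0.00223), and at 0.998 in Hmgn1-/- mESCs (adjusted p 0.0068) it was a DEG with DESeq2 and not with edgeR. At any fold 1, 1 and 2 of the 17 were called lower and 2, 2 and 2 higher. Besides Irf1 and Irf8, Nfkb1 was called higher in each line, at 0.635, 0.599 and 0.742 (adjusted p 6.39e-06, 0.00107 and 1.45e-06). Relb was called lower in double knockout mESCs, at -0.45 (adjusted p 0.00771). No protein or binding of these factors was measured in these libraries.

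Of 8 genes of interferon signalling (receptors, kinases and the suppressor Socs1) 0 were DEGs with edgeR or DESeq2, with 3 at an unadjusted p under 0.05 in each comparison with WT mESCs and medians of 0.09, -0.01 and -0.04. Jak1 and Tyk2 had the most counts, at log2 fold changes of 0.15, 0.08 and 0.09 for Jak1 and of 0.04, 0.03 and -0.03 for Tyk2. At any fold 2, 0 and 1 of the 8 were called, all lower. Ifnar1 was called in Hmgn1-/- mESCs at -0.39 (adjusted p 0.000869) and in the double knockout at -0.325 (adjusted p 0.00403). Jak2 was called in Hmgn1-/- mESCs at -0.64 (adjusted p 0.00496). Of 10 MHC class II genes 4, 5 and 5 were tested and 0 were DEGs with either tool, with 2, 3 and 2 at an unadjusted p under 0.05 and medians of -0.51, -0.74 and 0.09. Cd74 and H2-DMa had the most counts of these, at log2 fold changes of -0.16, -0.74 and 0.09 for Cd74 and of -0.10, -0.07 and 0.28 for H2-DMa. Of these 2 only Cd74 in Hmgn2-/- mESCs had an unadjusted p under 0.05. The rest at that level were H2-DMb1 and H2-Eb1, which were not called. H2-DMb1 was at -1.14, -1.34 and -1.13 (adjusted p 0.0253, 0.0146 and 0.0151). H2-Eb1 was at -0.85, -0.74 and -1.05 (adjusted p 0.0492, 0.125 and 0.0387). H2-Ab1, tested in Hmgn2-/- and double knockout mESCs, was at 0.51 and 0.79 (adjusted p 0.574 and 0.176).

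**Figure D5:**
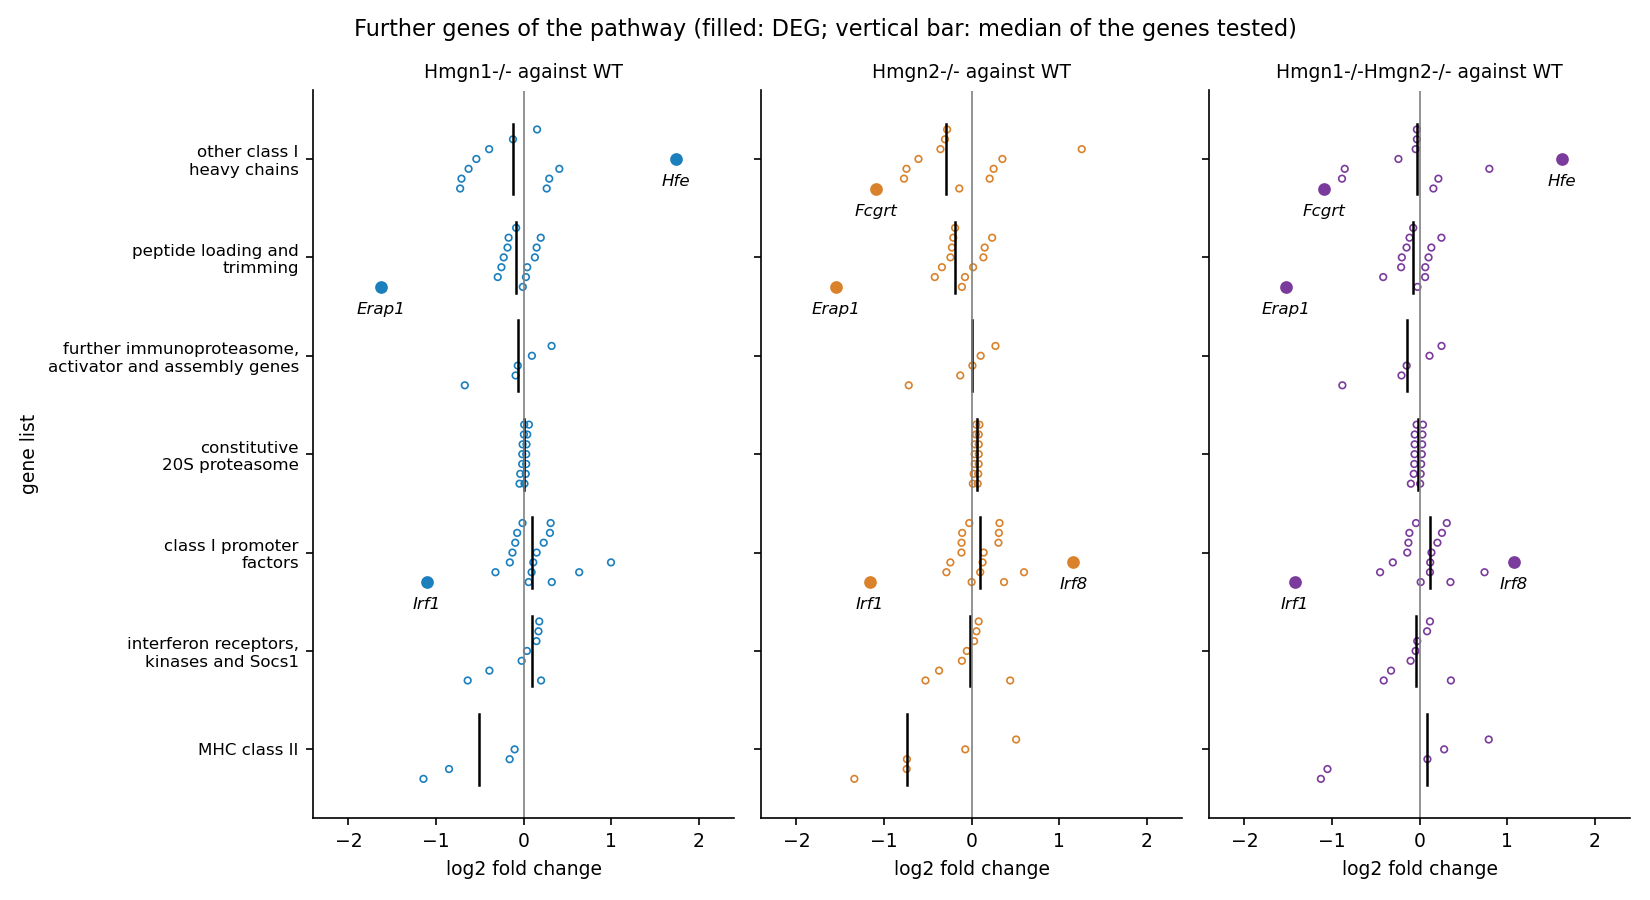
Log2 fold change against WT mESCs (horizontal axes) of the genes tested in 7 lists of the pathway (vertical axis), with filled points for DEGs and a vertical bar at the median of each list. The lower DEGs are Erap1, Irf1 and Fcgrt, and the constitutive 20S subunits sit close to 0.

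By a rule on likeness, the 5 genes whose log2 levels followed most closely the mean of the 7 members with a mean of at least 1 CPM were Nrep (Pearson r 0.936), B3galtl (0.927), Tspan13 (0.924), Araf (0.919) and Nuak2 (0.916), over 12 libraries and 11417 candidate genes. The libraries fall into 4 genotypes, so these values describe mainly differences between WT and knockout mESCs. Of the 7 members themselves H2-D1 followed their mean at 0.890 and H2-K1 at 0.055. Nrep stood at 51.3%, 53.0% and 52.1% of its WT level in Hmgn1-/-, Hmgn2-/- and double knockout mESCs.

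Markers of other cells also differed between the lines. The 10 fibroblast markers summed to 25.3, 21.8 and 26.7 CPM in WT, 9.64, 8.89 and 9.79 in Hmgn1-/-, 9.66, 10.3 and 9.99 in Hmgn2-/-, and 8.59, 12.6 and 10.9 in double knockout mESCs. Thy1 was the most abundant in every library, Lum was at 0 in all 12, and 1 or both of Dcn and Postn were at 0 in each of the 9 knockout libraries. Of the 10, 5, 5 and 6 had enough counts to be tested in Hmgn1-/-, Hmgn2-/- and double knockout mESCs, and 3, 3 and 4 were lower DEGs with edgeR, or 3, 3 and 3 with DESeq2. Of these DEGs Col1a2 in the single knockouts and Twist2 in the double knockout passed the filter on low counts through the WT libraries, so a difference was needed for them to be tested. The 12 markers of macrophages and other leukocytes summed to 91.3, 131.6 and 145 CPM in WT, 64.0, 65.6 and 75.5 in Hmgn1-/-, 58.4, 69.0 and 71.3 in Hmgn2-/-, and 60.1, 76.0 and 76.6 in double knockout mESCs. Laptm5 made up most of this sum, Emr1 and Tyrobp were at 0 in all 12 libraries, and the pan-leukocyte marker Ptprc had 0 to 7 counts. Of these 12 markers 6, 5 and 6 were tested, and 2, 1 and 2 were lower DEGs with edgeR, or 2, 2 and 3 with DESeq2, and 3, 2 and 3 were called lower at any fold with edgeR. The sums of both lists were lower in every knockout library than in every WT library, as the levels of Tapbp and Psmb8 were, and their part in those results was not tested.

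The 10 markers of primitive endoderm summed to 144, 183.8 and 188.1 CPM in WT, 480.3, 393.4 and 402.9 in Hmgn1-/-, 557.2, 500.2 and 358.2 in Hmgn2-/-, and 1051, 1032 and 960.4 in double knockout mESCs. Lama1 or Col4a1 was the most abundant, none of the 10 was at 0, and 7, 8 and 10 of the 10 were higher DEGs. The 10 markers of mESCs summed to 6936, 6979 and 7145 CPM in WT, 7132, 7338 and 7628 in Hmgn1-/-, 6659, 7161 and 7854 in Hmgn2-/-, and 6596, 7185 and 7315 in double knockout mESCs. None of these was at 0, and 0 were DEGs with edgeR or DESeq2, with 5, 5 and 6 at an unadjusted p under 0.05. At any fold 1, 1 and 1 of these were called lower and 3, 1 and 2 higher. The part of the primitive endoderm markers in the levels of the class I genes was not tested.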

How the data were processed

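RNA of 12 libraries was compared, 3 replicates of each of 4 genotypes, grouped by the labels. Per the labels and the study's methods, the authors sequenced poly-A-selected RNA in paired-end mode, used STAR for alignment to mm10, and deposited counts of reads per gene that were not normalized. The counting program, its annotation and its use of strand are not given in the sources used here. Library totals ran from 17337908 to 31448468 counts.

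Each pair of groups was fitted on its 6 libraries in edgeR 4.0.16 under R 4.3.3 with TMM scaling, filterByExpr at its defaults, the quasi-likelihood test and Benjamini-Hochberg adjustment over all genes tested. The contrast for additivity used all 12 libraries. DEGs had an adjusted p under 0.01 and a log2 fold change of at least 1 in size. The code was tested on simulated data. Alternatives were DESeq2 1.42.0, RLE scaling, an adjusted p under 0.05, a filter at 1 count in the fit or at 10 counts in each of its libraries, glmTreat, all 12 libraries in 1 fit, library totals in place of TMM for levels, a replicate block and each library left out. Ranges of the adjusted p over the alternatives leave out glmTreat, which tests another hypothesis.

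Deviations of same-numbered libraries from their group means correlated at 0.013 to 0.304 over 18 pairs, 12 of them over 0.1, and between double knockout and WT mESCs at 0.17, 0.117 and 0.102, so the block was checked. Replicates are named biological in the study's methods, and whether same-numbered libraries were handled together is not given. Intervals of fold changes are at 95%, and the limit set by a count of 0 covers counting error only, as 3 counts. Python 3.11.15 with matplotlib 3.10.9 made the figures. Of the 23412 genes, 21563 matched a RefSeq symbol of GRCm38.p6, 1713 a synonym and 136 none, which set positions, exon lengths and neighbours.

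Genes named were the 9 members, Hmgn1 and Hmgn2, each DEG of the 8 pathway lists in a comparison of 2 groups or else the 2 genes of the list with the most counts, and the 5 genes most alike. Others named were markers of other cells, genes that overlap a member, and Socs1 and further genes of some lists, to describe those lists. The 5 genes most alike were taken from genes whose mean was 50 counts or more, by correlation of log2 levels (prior count 2) with the members' standardized mean. Markers of 4 cell types were summed. The members and lists were chosen with earlier results of these data known. The share of all genes called at any fold against WT is given for both directions together, a form chosen after the shares for each direction had been seen.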

Additional observations from a re-analysis of the deposited data

Results flagged for a closer look

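Tap1 departed from additivity by 1.33 on the log2 scale, so the difference between double knockout and Hmgn2-/- mESCs was not that between Hmgn1-/- and WT mESCs by the test of the contrast. Tapbp departed by 0.96 by the same test. Each genotype was 1 line, so these are differences between lines, and their cause was not tested.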

How the results depend on the processing

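Of the fold changes of the 9 genes under the alternatives, and of their levels with library totals in place of TMM, 883 kept their direction or stayed uncalled on the same side of the DEG rule, 16 lost and 3 gained a call, and 0 called values changed sign. With glmTreat the genes called numbered 234, 172 and 223 in Hmgn1-/-, Hmgn2-/- and double knockout against WT mESCs, 7 in Hmgn2-/- against Hmgn1-/-, and 13 and 1 in the double knockout against Hmgn1-/- and Hmgn2-/- mESCs; of the 9, it called 0, 0 and 1 against WT, since it tests against a log2 fold change of 1. With at least 10 counts in every library, which removed Psmb8, 1 of the 9 was called in Hmgn1-/-, and 1 in double knockout mESCs (1 at any fold). In the double knockout against Hmgn2-/- mESCs the 6 genes called became 29 with DESeq2, 21 without a filter, 24 at an adjusted p under 0.05, 18 with all 12 libraries in 1 fit and 32 with a replicate block. For additivity an adjusted p under 0.05 gave 798 genes, 2 of the 9 and 4 at any fold. With each library left out in turn, called members ranged from 1 to 2 in Hmgn1-/- mESCs, from 1 to 3 in Hmgn2-/- mESCs (1 to 3 at any fold) and from 1 to 2 for additivity. Between the double knockout and Hmgn1-/- mESCs 0 to 0 members were called at any fold. Of all genes, 1 to 12 were DEGs between the double knockout and Hmgn2-/- mESCs. The cause was not tested where none is given. Depth limited Psmb8, Psmb9, Tap2, H2-D1 and Nlrc5, with under 100 counts in every library. Each knockout was 1 line, reads shared by overlapping or similar genes could not be separated, and RNA was not compared with protein.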
